A study of Mus musculus with 2 samples.

Results

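Capillary endothelial cells were taken as the cells that the study's cluster annotation of its retinal single-cell libraries calls Capillary. The label was held by 149 of the 1560 labelled cells of the P6 library (9.55%, 95% Clopper-Pearson interval 8.14 to 11.1) and by 42 of the 438 labelled cells of the P15 library (9.59%, 7.0 to 12.7). Both libraries came from retinas of wild-type C57BL/6 pups, at postnatal day 6 and postnatal day 15, with 1 library per age. CD31+CD45- cells, that is cells with a surface protein of endothelium and without one of blood cells, were collected by FACS. No transgene or treatment is given in the sample labels, and the study's methods state that both sexes were used in equal numbers over its experiments. The number of pups behind each library was not given in the sources used here. There were 1984 cell barcodes at P6 and 2141 at P15, and the P15 labels used here cover only the first 438 cells of the list. The libraries had 7 barcodes in common, of which 1 was a Capillary cell at P6.

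Retinal capillaries are the exchange vessels between arterioles and venules. Their endothelial cells are sealed by tight junctions, carry out little transcytosis, import glucose, amino acids and lipids through dedicated carriers, and share a basement membrane with pericytes, which together form the inner blood-retina barrier. The vascular plexus is still spreading and remodeling in the first postnatal week and matures over the following days.

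Every comparison below sets the unique molecular identifiers (UMIs, 1 per captured mRNA) summed over Capillary cells against those summed over all other labelled cells of the same library, as counts scaled to a common total of UMIs (CPM). With 1 library per age there is no replicate check and no test. Intervals are exact 95% intervals for counting error only. The study made its clusters from the same genes, so a difference between Capillary and the other cells describes the cluster and does not test it.

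Capillary cells were shallow and rich in mitochondrial transcripts. At P6 they held a median of 3204 UMIs (range 609 to 10489) and 1686 genes, against 5634 UMIs and 2317 genes in the other labelled cells. At P15 the medians were 2268 UMIs (870 to 6737) and 1338 genes, against 4551 UMIs and 2146 genes. Of the 149 P6 cells, 141 lay below the median depth of the other cells.

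The mitochondrially encoded share of UMIs had a median of 2.51% in P6 Capillary cells and 1.16% in the other cells, and of 1.81% and 0.992% at P15. Shares of at least 2% were found in 110 of 149 Capillary cells (73.8%) and 177 of 1411 other cells (12.5%) at P6, and in 17 of 42 (40.5%) and 24 of 396 (6.06%) at P15. Of the Capillary cells, 146 of 149 at P6 and 37 of 42 at P15 lay above the median of the others. The 2 groups of cells overlapped in both measures at both ages.

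**Figure D1:**
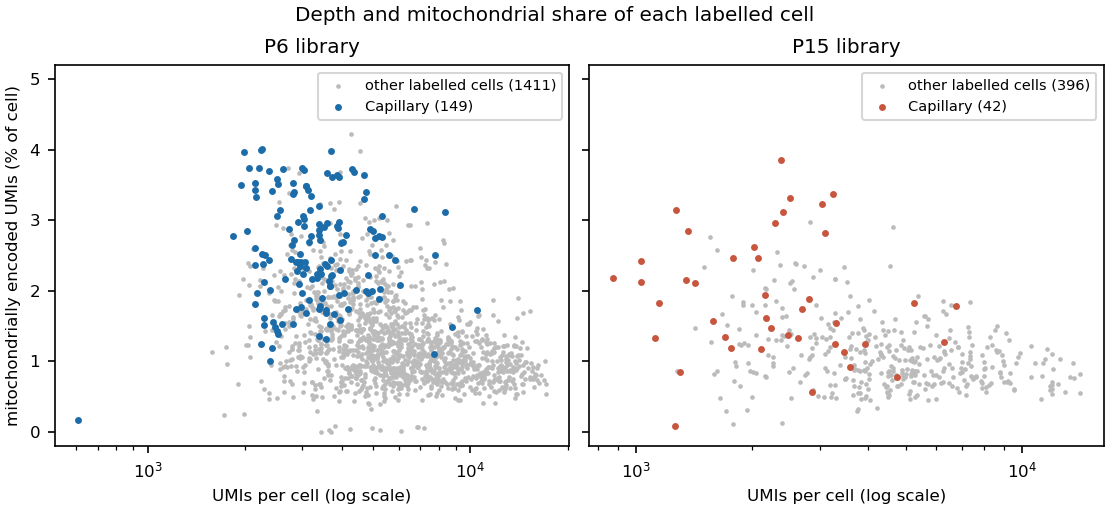
UMIs per cell (x axis, log scale) against the percent of UMIs from mitochondrially encoded genes (y axis) for each labelled cell of the P6 library (left) and P15 library (right), with Capillary cells in colour and the other labelled cells in grey. Capillary cells lie to the upper left at both ages, with medians of 3204 UMIs and 2.51% at P6 and 2268 UMIs and 1.81% at P15.

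Of the 3 markers used here for the label, of which *Col15a1* is not among the genes the study lists for it, *Mfsd2a* encodes the lysophosphatidylcholine transporter that restrains transcytosis at the blood-brain and blood-retina barriers, *Kdr* encodes the principal VEGF receptor, and *Col15a1* encodes a basement membrane collagen. In GRCm38 (GENCODE M21) they lie at chr4:122946850-122961188 on the minus strand, chr5:75932827-75978458 on the minus strand and chr4:47208161-47313167 on the plus strand. *Kdr* had its highest level of any cluster in Capillary cells at both ages, with 677 CPM (608 to 751) at P6 and 880 CPM (710 to 1077) at P15. The next cluster was Cap-Arterial at both ages, with 510 CPM (462 to 560) and 462 CPM (389 to 546), so the intervals did not overlap.

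*Mfsd2a* was highest in Capillary cells at P6 only. It reached 826 CPM (750 to 908) there, and Cap-Venous followed with 596 CPM (567 to 626). At P15 Cap-Arterial cells held 813 CPM (714 to 921) and Capillary cells 596 CPM (458 to 762), whose intervals overlapped. The ratio of Capillary to all other labelled cells was 1.79 (1.62 to 1.98) at P6 and 1.22 (0.930 to 1.57) at P15.

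*Col15a1* stood at 249 CPM (208 to 295) in P6 Capillary cells and at 175 CPM (151 to 201) in Tip cells, the next cluster. At P15 only 5 UMIs in 3 Capillary cells were counted, or 47.3 CPM (15.4 to 110), against 28.2 CPM (12.2 to 55.5) in Tip cells. The marker was uneven among the P6 Capillary cells, with 88 of 149 at 0 UMIs and 18 of its 130 UMIs in 1 cell, and the ratio to the other cells was 3.37 with that cell and 2.95 without it.

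**Figure D2:**
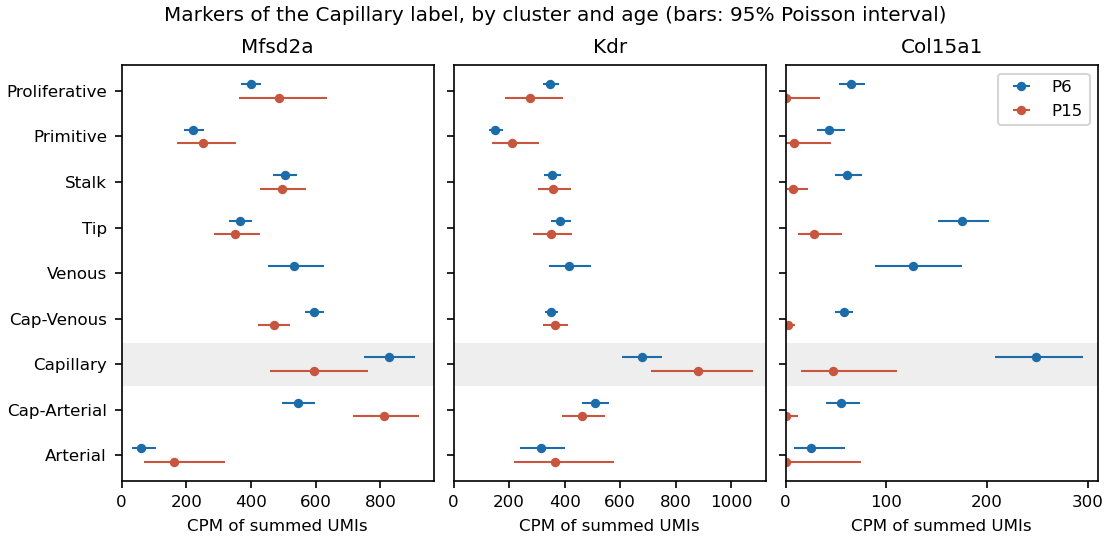
Level of *Mfsd2a*, *Kdr* and *Col15a1* in CPM of summed UMIs (x axes, starting at 0) in each labelled cluster (y axis) at P6 and P15, with exact 95% Poisson intervals as bars and the Capillary row shaded. The P15 Venous cluster of 2 cells is not drawn. Capillary cells lead for all 3 genes at P6, and for *Kdr* at P15, where the *Col15a1* intervals of Capillary and Tip overlap.

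Single Capillary cells often lacked 1 of the markers. UMIs of *Mfsd2a* were found in 125 of 149 P6 Capillary cells (83.9%, 77.0 to 89.4) and of *Kdr* in 133 (89.3%, 83.1 to 93.7), against 78.5% and 80.5% of the deeper other cells. With each cell thinned to 1500 UMIs, which left out 1 Capillary cell, the shares were 65.5% against 45.2% for *Mfsd2a* and 67.6% against 43.6% for *Kdr*. Unlabelled P6 barcodes with at most 1 endothelial UMI, 29 in number and with a median of 2865 UMIs, held *Mfsd2a* in 6.90% and *Kdr* in 13.8%. All 149 P6 cells had a UMI of at least 1 of the 3 markers, and 3 of 42 P15 cells had none. At P15, thinning to 1500 UMIs kept 31 Capillary cells, of which 58.1% (39.1 to 75.5) had *Mfsd2a* and 67.7% (48.6 to 83.3) had *Kdr*, against 46.3% and 38.2% of the other cells.

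The genes that the study itself gives for capillaries differed unevenly. *Sparc*, a secreted collagen-binding protein, stood at 8739 CPM (8487 to 8996) at P6, a ratio of 1.60 (1.55 to 1.65), and at 8114 CPM at P15, a ratio of 1.01 (0.940 to 1.08). *Rgcc*, a regulator of the cell cycle, had ratios of 0.860 (0.759 to 0.971) and 0.997 (0.796 to 1.24). *Sgk1*, a serum-induced kinase, was at 140 CPM in Capillary and 291 CPM in Cap-Arterial cells at P6, and at 180 and 406 CPM at P15. *Car1* had no row in either table. Of the 5 genes of the study that were measured, *Mfsd2a*, *Kdr* and *Sparc* at P6 and *Kdr* at P15 were at least 1.5-fold higher in Capillary cells, beside 11.8% of the 3198 genes counted at P6 and 8.38% of the 1874 at P15.

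Across all genes with at least 50 CPM over the labelled cells at P6 and 100 CPM at P15, 376 genes were at least 1.5-fold higher in Capillary cells at P6 and 248 at least 1.5-fold lower (7.75%). At P15 there were 157 higher and 296 lower (15.8%). With every ratio divided by the median ratio of its library, the counts were 452 higher and 162 lower at P6 and 242 higher and 176 lower at P15, so which side was larger at P15 depended on the scaling. A gene at the minimum level is expected to give 26.1 UMIs in all P6 Capillary cells and 10.6 UMIs in all P15 ones, so single P15 genes near the minimum were poorly resolved. The median log2 ratio over all genes counted was -0.06 at P6 and -0.15 at P15.

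At P6 the largest ratio was that of *Col15a1*, followed by *Stab1*, a scavenger receptor, with 199 against 68.1 CPM (ratio 2.92, 2.35 to 3.6), and *Vwf*, which encodes von Willebrand factor, with 354 against 122 CPM (2.90, 2.47 to 3.39). *Hspg2*, which encodes perlecan, had a ratio of 2.72 (2.40 to 3.07), the laminin gene *Lamc1* 2.66 (2.23 to 3.17) and the semaphorin receptor gene *Plxnd1* 2.65 (2.30 to 3.05). The cholesterol exporter gene *Abca1* had 2.66 (2.17 to 3.24), and the laminin receptor subunit gene *Itga6* 2.58 (2.11 to 3.13). The 15 genes with the largest ratio at P6 also held the agrin gene *Agrn* and the laminin gene *Lamb1*, the adhesion receptor gene *Adgrl3*, the exchange factor gene *Mcf2l*, and 3 annotated as noncoding, *Gdap10*, *Gm23935* and *CT010467.1*.

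At P15 the order was led by *Gm23935*, a 57-base gene annotated as a miRNA, with a ratio of 10.5 (8.08 to 13.7). It rested on 1 cell, which held 64 of its 91 UMIs, and without that cell the ratio was 3.18. Next came *Agrn* with 473 against 115 CPM (4.11, 2.97 to 5.60), *Gdap10* with 3.90 (2.88 to 5.22) and *Plxnd1* with 3.16 (2.17 to 4.50). The guidance gene *Sema6a* had 3.11 (2.18 to 4.33), *Vwf* 3.07 (2.31 to 4.04), *Adgrl3* 3.03 (2.02 to 4.42), and *Tek*, which encodes the angiopoietin receptor Tie2, 2.82 (1.93 to 4.01). Against single clusters the P15 gaps were less clear. *Vwf* had 577 CPM (441 to 741) in Capillary and 426 CPM (353 to 509) in Tip cells. *Tek* had 340 CPM (238 to 471) in Capillary and 211 CPM (163 to 270) in Cap-Arterial cells. *Agrn*, *Plxnd1*, *Vwf*, *Adgrl3*, *Gdap10* and *Gm23935* were thus among the 15 largest at both ages.

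*Fbln5*, which encodes an elastic fibre protein, was lowest at P6, with 36.3 against 115 CPM (ratio 0.315, 0.189 to 0.494), and was found in 18 of 149 Capillary cells and 392 of 1411 others. *S100a10*, an annexin partner, had 0.443 (0.291 to 0.649), the AP-1 gene *Jund* 0.444 (0.286 to 0.659), and the import gene *Timm17a* 0.468 (0.301 to 0.695). At P15 *Cxcl12*, the chemokine that binds CXCR4, stood at 123 CPM in Capillary cells and 633 CPM in the others (0.194, 0.103 to 0.333), with UMIs in 8 of 42 and 177 of 396 cells. *Nebl*, which encodes nebulette, had 0 UMIs in the P15 Capillary cells and 129 CPM in the others, so it was at least 4.56-fold lower against a floor of 3 counts. The other P15 genes of this end, from *Sbds* to *Gm15421*, had 2 to 9 UMIs each.

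The basement membrane list of 16 genes was higher almost throughout. Of the 13 members counted at P6, 12 were at least 1.5-fold higher in Capillary cells and none lower, with a median log2 ratio of 1.25. Of the 11 counted at P15, 9 were higher and none lower, with a median of 1.13. Over all genes counted, 11.8% were higher at P6 and 8.38% at P15. Together the list made up 17598 CPM in P6 Capillary cells and 9751 CPM in the others, and 17250 and 13083 CPM at P15. *Col15a1* is both a marker and a member of this list. The list, like the others here, was chosen with earlier results of these data known. Its counts therefore describe these cells and are no independent check.

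Type IV collagen, the network former of the basement membrane, was at 1945 CPM (1827 to 2068) for *Col4a1* in P6 Capillary cells, against 930 CPM in the others (ratio 2.09, 1.96 to 2.23). Its level at P15 was 1504 CPM (1279 to 1756), a ratio of 2.52 (2.12 to 2.97). *Col4a2* had ratios of 2.21 and 1.96.

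The laminin chains, which bind integrins, followed. *Lama4* stood at 507 against 206 CPM at P6 (2.45, 2.15 to 2.79) and at 577 against 220 CPM at P15 (2.62, 1.97 to 3.43). *Lamb1* had ratios of 2.62 and 1.88 and *Lamc1* 2.66 and 2.12. The linker gene *Nid1* had 2.38 and 2.19, the heparan sulfate proteoglycan gene *Hspg2* 2.72 and 2.48, and *Fn1*, which encodes fibronectin, 2.18 and 2.57. *Col18a1*, the source of endostatin, was 1.89 (1.68 to 2.11) at P6, whereas at P15 it had 6 UMIs in Capillary cells, below the level at which a ratio can be read. *Sparc* and *Sparcl1* had the smallest ratios of the counted members at both ages, at 1.60 and 1.34 at P6 and 1.01 and 1.03 at P15.

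**Figure D3:**
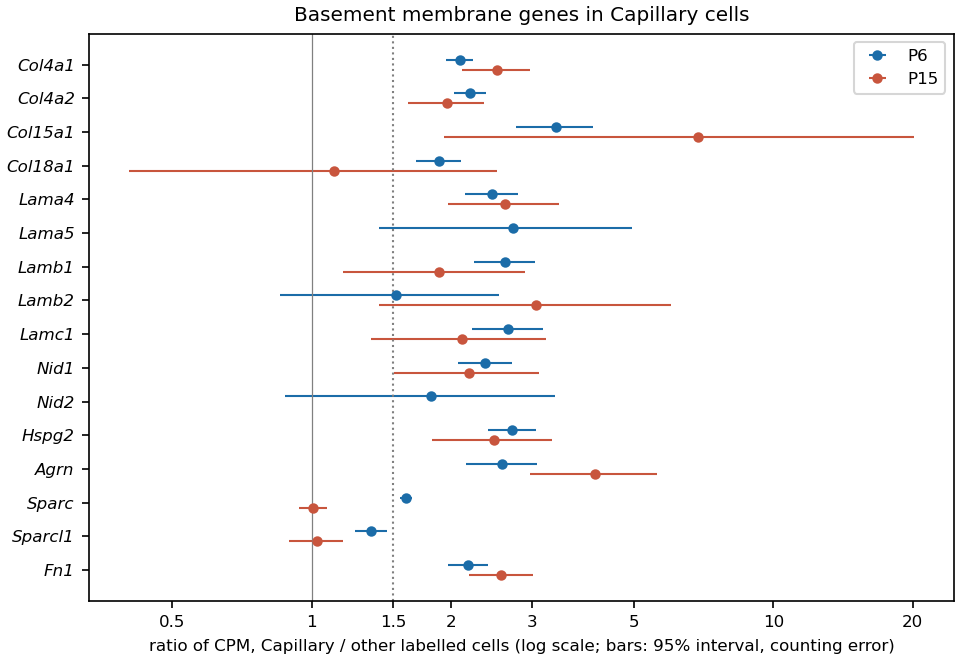
Ratio of CPM in Capillary cells to CPM in all other labelled cells (x axis, log scale) for the basement membrane genes with at least 5 UMIs in Capillary cells (y axis), at P6 and P15, with 95% intervals for counting error. The solid line marks a ratio of 1 and the dotted line 1.5. All P6 points lie above 1, and the *Sparc* and *Sparcl1* points of P15 lie at 1.01 and 1.03.

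At P6 basement membrane transcripts also went with the mitochondrial share outside the Capillary label. Among the other labelled P6 cells, those with at least 2% mitochondrial UMIs exceeded those below 2% by a median log2 ratio of 0.78 over the 13 members, and 10 were past 1.5-fold (beside 3.31% of all genes). Kept to the Capillary depth range of the next paragraph, this split of the other cells gave 0.79, with 9 of 13 past 1.5-fold (8.97%). At P15 it gave 0.26, with 3 of 11 past 1.5-fold (6.94%), and 0.16 within the depth range, where 21.9% of all genes were past 1.5-fold lower. Within P6 Capillary cells the share of UMIs from the list and the mitochondrial share had a Pearson r of 0.29 and Spearman rho of 0.27 over 149 cells of the same library, and in the other cells 0.32 and 0.26 over 1411. At P15 the values were 0.36 and 0.39 over 42 Capillary cells and 0.09 and 0.12 over the 396 other cells, where the relation was weak.

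When the comparison was kept to P6 cells with 2604 to 3906 UMIs, the inner quartiles of Capillary depth, the median of the list was 0.95, with 10 of 13 members past 1.5-fold (beside 10.4% of all genes, and 9.79% lower). With a mitochondrial share of at least 2% required as well, 59 Capillary and 53 other cells remained, and the median was 0.43, with 2 of 13 members past 1.5-fold (beside 13.9% of all genes). The same cells gave ratios of 2.25 for *Col15a1*, 1.40 for *Mfsd2a*, 1.18 for *Kdr*, 1.60 for *Hspg2* and 1.07 for *Vwf*. At P15 this left 8 and 18 cells, and the list median was 0.83, with 8 of 11 past 1.5-fold, but 27.2% of all genes were then past 1.5-fold higher and 34.1% lower. How far depth and mitochondrial content contribute to the label was not tested beyond these values, and the split at 2% was chosen after the data were seen.

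Endothelial identity genes were present, and most did not reach 1.5-fold. At P6, 13 of 14 had a ratio above 1 and 5 were past 1.5-fold higher (beside 11.8% of all genes), and at P15 11 of 13 were above 1 and 3 past 1.5-fold (beside 8.38%). The junction gene *Cdh5*, which encodes VE-cadherin, stood at 780 against 502 CPM at P6 (1.55, 1.40 to 1.72) and at 624 against 500 CPM at P15 (1.25, 0.958 to 1.60). *Pecam1*, which encodes the sorted protein CD31, had 734 against 500 CPM (1.47, 1.32 to 1.63) and 832 against 686 CPM (1.21, 0.967 to 1.51). The endothelial transcription factor gene *Erg* had 0.996 (0.660 to 1.45) at P6, the 1 member not above 1.

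Of the VEGF receptors other than *Kdr*, *Flt1*, the decoy receptor for VEGF, had ratios of 1.63 (1.48 to 1.79) and 1.23 (1.01 to 1.48), and the co-receptor gene *Nrp1* 1.43 (1.20 to 1.69) and 1.34 (0.911 to 1.91). Cap-Arterial cells held more *Flt1* than Capillary cells, with 1004 against 930 CPM at P6 and 1675 against 1116 CPM at P15. Their intervals overlapped at P6 and not at P15. In the angiopoietin pathway, all counted members lay past 1.5-fold at both ages, 4 at P6 and 3 at P15, beside 11.8% and 8.38% of all genes. *Tek* stood at 306 against 137 CPM at P6 (2.24, 1.89 to 2.64), *Tie1*, its partner receptor, had 1.57 and 1.65, and *Ptprb*, the phosphatase that acts on Tie2, 1.54 and 1.61. The ligand gene *Angpt2* had 9 and 4 UMIs in Capillary cells and could not be resolved.

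Integrins are the matrix receptors that match these ligands. Of the 5 counted at P6, all had ratios above 1 and 3 were past 1.5-fold, beside 11.8% of all genes. *Itga1* stood at 203 against 96.3 CPM (2.11, 1.70 to 2.58), *Itga6* at 228 against 88.2 CPM and *Itga5* at 159 against 101 CPM (1.57, 1.24 to 1.97). The common subunit gene *Itgb1* had 1.46 (1.31 to 1.61). At P15, *Itga1* had 1.79 (1.21 to 2.58), *Itga6* 1.5 (0.843 to 2.5) and *Itgb1* 1.09 (0.827 to 1.40).

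Barrier carriers, the transporters and related genes of the blood-retina barrier, gave 5 of 17 members past 1.5-fold higher at P6 and 1 lower, with a median of 0.55. All genes gave 11.8% higher and 7.75% lower there. At P15, 6 of 18 were higher and none lower, with a median of 0.32, beside 8.38% and 15.8% of all genes. *Slc7a1*, a cationic amino acid carrier, stood at 1190 CPM in P6 Capillary cells and 509 CPM in the others (2.34, 2.15 to 2.54), and at 671 against 398 CPM at P15 (1.69, 1.31 to 2.15). *Tfrc*, which encodes the transferrin receptor, had ratios of 2.53 (2.11 to 3.01) and 2.38 (1.68 to 3.28), and the zinc carrier gene *Slc39a10* 2.23 (1.89 to 2.63) and 1.82 (1.26 to 2.57). The glucose carrier gene *Slc2a1* had 1.46 (1.36 to 1.58) and 1.13 (0.978 to 1.29), and the large neutral amino acid carrier gene *Slc7a5* 1.49 and 1.48.

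The organic anion carrier gene *Slco1a4* had 14 UMIs in P6 Capillary cells, with a ratio of 0.793 (0.428 to 1.35), and stood at 1646 against 945 CPM at P15 (1.74, 1.48 to 2.03). The monocarboxylate carrier gene *Slc16a1* had 1.43 (1.07 to 1.87) and 1.78 (1.52 to 2.07). *Slc9a3r2*, which encodes a scaffold protein, was lower at P6, at 0.649 (0.533 to 0.783).

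Of the efflux pumps, *Abcb1a*, which encodes P-glycoprotein, stood at 191 against 92.5 CPM at P6 (2.07, 1.66 to 2.55) and at 378 against 210 CPM at P15 (1.80, 1.27 to 2.50). *Abcg2* had 1.47 and 1.02. Among lipid uptake genes, the reelin and lipoprotein receptor gene *Lrp8* had 2.02 (1.68 to 2.41) and 2.40 (1.71 to 3.29). *Cd36*, *Fabp4* and *Lpl*, carriers and lipase of fatty acid uptake elsewhere, had 0 UMIs in Capillary cells of both libraries, which allows up to 3 counts each.

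Junction genes had ratios above 1 in all 10 counted members at P6, of which 4 were past 1.5-fold, beside 11.8% of all genes. At P15, 6 of 9 had ratios above 1, and 1 of the 9 was past 1.5-fold higher and 1 lower. The P15 count was near the shares of all genes, 8.38% higher and 15.8% lower. The tight junction gene *Cldn5* stood at 7492 against 5258 CPM at P6 (1.42, 1.38 to 1.47) and at 10564 against 9990 CPM at P15 (1.06, 0.995 to 1.12). *Ocln*, which encodes occludin, had 1.62 (1.30 to 2.01) and 1.49 (1.05 to 2.06), and *Tjp1*, which encodes the scaffold ZO-1, 1.5 (1.22 to 1.82) and 1.99 (1.26 to 3.01). Caveolar genes did not share the direction, since *Cav1* had 1.35 and 1.21 while *Cavin3* had 0.596 (0.496 to 0.711) and 0.501 (0.285 to 0.821). *Plvap*, the diaphragm protein of leaky vessels, was at 310 CPM in P6 Capillary cells and gave 4 UMIs at P15.

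Genes of the Norrin and Wnt pathway, which sets up the barrier in the retina, were near the background at P6. There, 1 of 8 counted members was past 1.5-fold, beside 11.8% of all genes. It was the receptor gene *Fzd6*, at 189 against 122 CPM (1.55, 1.25 to 1.90). At P15, 3 of 8 were past 1.5-fold higher and none lower, beside 8.38% and 15.8% of all genes. Among them, *Fzd6* had 1.68 (1.13 to 2.41) and the transcription factor gene *Tcf7l2* 1.64 (1.11 to 2.34). *Lef1*, a target and effector, had 1.03 and 1.26, and the coreceptor gene *Tspan12* 1.16 and 0.760.

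Small numbers of arterial and venous genes were past 1.5-fold, to be read beside the shares of all genes. These were 11.8% higher and 7.75% lower at P6, and 8.38% higher and 15.8% lower at P15. None of 10 counted arterial genes was past 1.5-fold higher at P6, and *Gja4*, a gap junction gene of arterial endothelium, was lower at 161 against 276 CPM (0.582, 0.463 to 0.724). Of 9 counted at P15, 2 were higher, the Notch ligand gene *Dll4* at 227 against 108 CPM (2.11, 1.32 to 3.22) and *Mecom* at 1.53 (1.07 to 2.12), and 2 were lower. Of the venous genes, 2 of 9 counted were past 1.5-fold higher at P6 and 1 of 7 at P15, and none was lower. *Aplnr*, the apelin receptor gene, had 1.61 (1.47 to 1.77) and 1.44 (1.18 to 1.76), and *Slc38a5*, a glutamine carrier, 1.40 and 1.53. *Nr2f2*, which encodes the venous regulator COUP-TFII, had 1.51 (1.14 to 1.97) at P6 and 7 UMIs at P15.

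Of the sprouting tip cell genes, 2 of 5 counted were past 1.5-fold higher at P6, beside 11.8% of all genes. *Mcam*, an adhesion gene, stood at 436 against 185 CPM (2.35, 2.04 to 2.71), and *Adm*, which encodes adrenomedullin, at 166 against 91.1 CPM, a ratio of 1.83 that was 1.29 without 1 cell with 26 of its 87 UMIs. *Igfbp3* had 1.16 (1.04 to 1.28) at P6 and 0.444 (0.202 to 0.852) from 9 UMIs at P15. *Esm1* had 17 UMIs at P6, of which 12 were in 1 cell.

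All 80 counted genes of cytosolic ribosomal proteins had a ratio below 1 at P6 and all 76 at P15, with medians of -0.40 and -0.38, but 7 and 11 were past 1.5-fold lower, near the 7.75% and 15.8% of all genes. Summed, they gave 146696 CPM in P6 Capillary cells and 192974 CPM in the others, and 83517 and 110185 CPM at P15. This and the other gene families were listed after the data were seen. The gene lists were chosen with earlier results of these data known.

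Of the glycolytic genes, *Ldha* stood at 440 against 625 CPM at P6 (0.704, 0.614 to 0.803) and at 350 against 771 CPM at P15 (0.454, 0.318 to 0.628), and 4 of 9 were past 1.5-fold lower at P15 (beside 15.8% of all genes). At P6, 1 of 10 was past 1.5-fold higher and none lower. The list median was -0.28 at P6, where it was 0.01 in the 59 and 53 cells of like depth and mitochondrial share, and -0.53 at P15. The immediate early gene *Fos* had 0.400 (0.223 to 0.665) and 0.562 (0.341 to 0.875), and *Jun* 0.620 at both ages, with 3 of 7 and 3 of 8 counted members of the immediate early list past 1.5-fold lower, beside 7.75% and 15.8%.

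Of the transcripts that stay in the nucleus, both counted at P6 were past 1.5-fold higher, and 1 of 3 at P15, beside 11.8% and 8.38% of all genes. *Malat1* made up 12026 CPM in P6 Capillary cells and 7807 CPM in the others (1.54, 1.5 to 1.58), and 30991 against 19820 CPM at P15 (1.56, 1.51 to 1.62). P6 Cap-Arterial and Arterial cells held more of it, with 17442 and 25795 CPM. At P15 Cap-Arterial cells held 31665 CPM (31034 to 32305), which overlapped the Capillary interval of 29939 to 32071. *Kcnq1ot1*, another noncoding RNA, had 2.31 (1.95 to 2.73) and 1.41 (0.851 to 2.23), and *Neat1*, counted at P15, 1.15 (0.675 to 1.86). Mitochondrially encoded protein genes had list medians of 1.05 and 0.67.

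**Figure D4:**
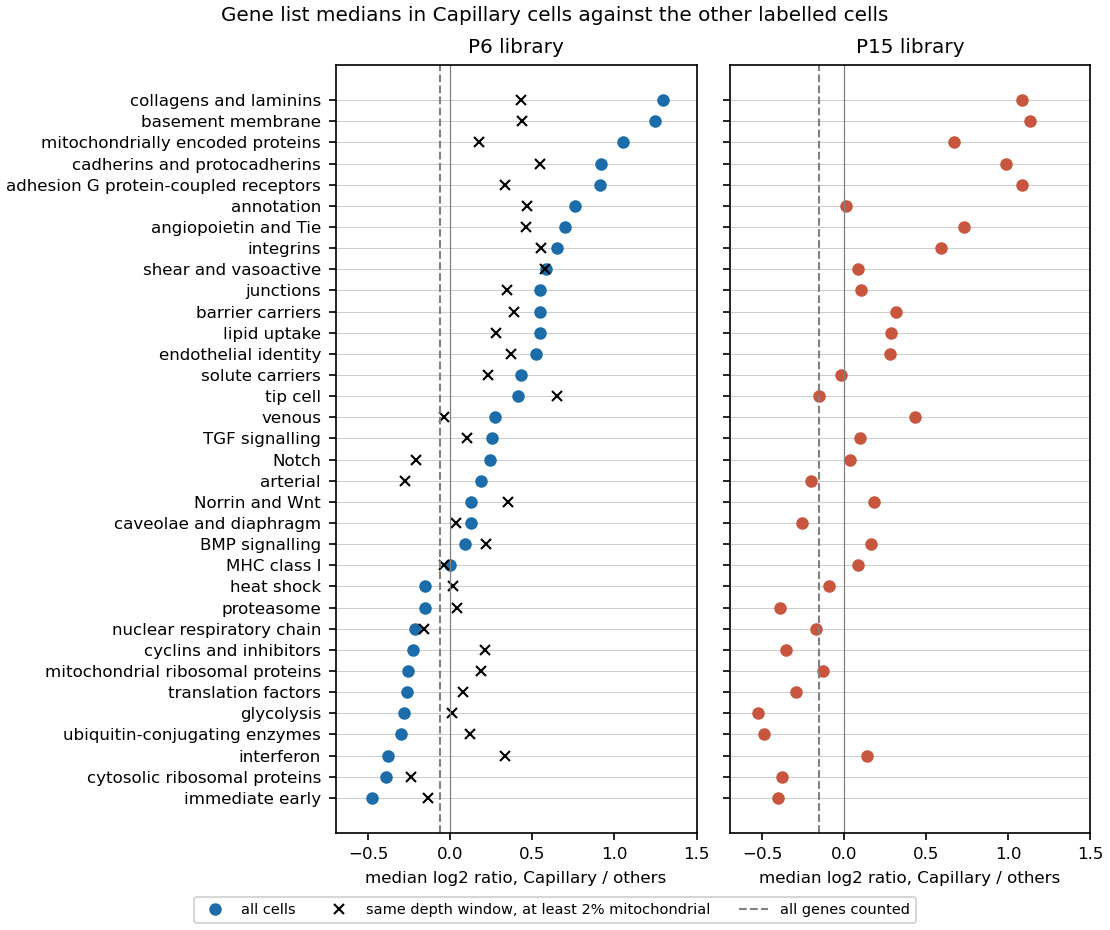
Median log2 ratio of Capillary to other labelled cells (x axis) for each gene list or family with at least 4 members counted at P6 and 3 at P15 (y axis, ordered by the P6 value) at P6 (left) and P15 (right). Circles are all cells, crosses are the 59 Capillary and 53 other P6 cells with 2604 to 3906 UMIs and at least 2% mitochondrial UMIs, and the dashed line is the median over all genes counted. The P15 subset of 8 and 18 cells is not drawn, and the annotation list holds the study's capillary genes and *Col15a1*. Basement membrane stands at 1.25 and 1.13, and the P6 cross at 0.43.

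The proliferation list depended on the cells compared. Against all other P6 cells, 1 of 14 members was higher and 5 were lower (median -0.39), beside 11.8% and 7.75% of all genes. Those other cells, however, include the 198 Proliferative ones. Against Cap-Venous cells 13 of 14 were past 1.5-fold higher (median 1.21), beside 13.6% of all genes, and against Cap-Arterial cells 14 of 14 (median 1.51), beside 14.3%. *Top2a*, which untangles DNA at mitosis, stood at 270 against 146 CPM in all others (1.85, 1.55 to 2.21). At P15 it had 1 UMI in Capillary cells, and *Mki67* had 0.

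Capillary cells were also set against each of the other clusters with capillary in their name. Against Cap-Venous cells, 435 P6 genes were at least 1.5-fold higher and 241 lower (7.54%), and 184 (9.82%) and 300 (16%) at P15. Against Cap-Arterial cells there were 457 and 385 (12%) at P6, and 223 (11.9%) and 336 (17.9%) at P15. The basement membrane list was higher against both, with medians of 1.35 and 0.93 at P6 and 1.34 and 1.25 at P15. *Slc7a1* had 1190 CPM in Capillary, 653 CPM in Cap-Venous and 516 CPM in Cap-Arterial cells at P6, and *Lama4* 507, 200 and 185 CPM. At P15 *Slc7a1* had 671 CPM (524 to 847), 482 CPM (434 to 534) and 502 CPM (425 to 588) in the same order. The Capillary interval overlapped both others. *Lama4* had 577, 204 and 132 CPM at P15. Of the 10 arterial genes, 6 were past 1.5-fold lower and 1 higher against Cap-Arterial cells at P6, and 3 were higher against Cap-Venous cells. Tip cells came closest in basement membrane genes, with list medians of 0.67 at P6, where 7 of 13 members were past 1.5-fold (beside 12.3% of all genes, and 8.82% lower), and 0.44 at P15, where 4 of 11 were (beside 13.2%, and 19.6% lower).

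Ratios went with the summed length of a gene's annotated exons. Over 3012 protein-coding nuclear genes counted at P6, the log2 ratio and the summed length of the exons had a Spearman rho of 0.44 across genes, which are not independent of each other. The median log2 ratio was -0.25 in the shortest and 0.30 in the longest of 4 groups of equal size, the longest from 6231 bases up. At P15, over 1751 genes, rho was 0.35 and the medians were -0.30 and 0.15. In the P6 cells of like depth and mitochondrial share rho was 0.18. Among the other labelled cells alone, those with at least 2% against those under 2% mitochondrial UMIs gave a rho of 0.25 at P6 and of -0.13 at P15. *Vwf* (16064 bases), *Hspg2* (14307 bases), *Lama4* (12068 bases) and *Agrn* (9285 bases) lie in the longest group, so length and gene function were not separated in these values. The part of length in the basement membrane result was not tested.

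**Figure D5:**
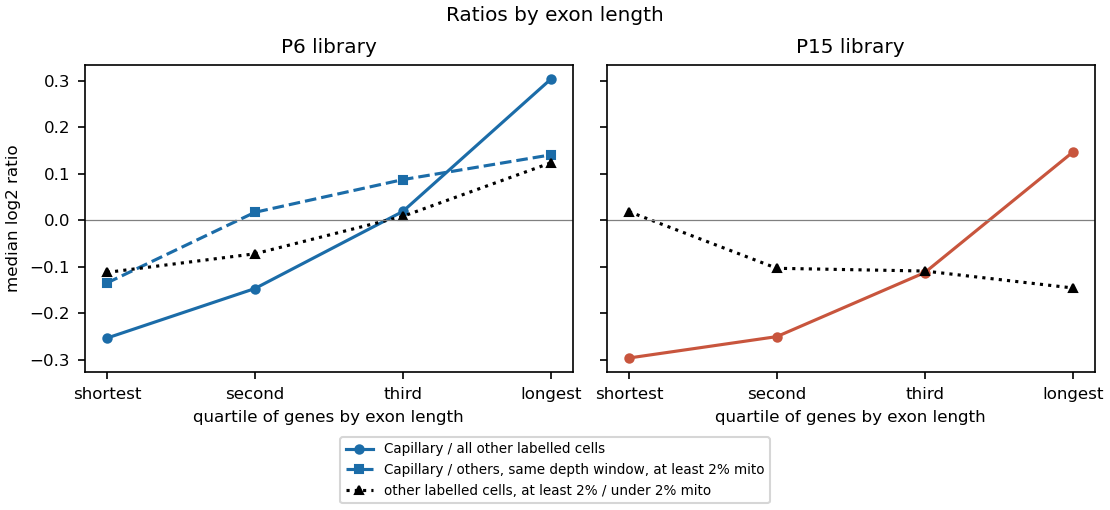
Median log2 ratio (y axis) over protein-coding nuclear genes in 4 equal groups by exon length, from shortest to longest (x axis), at P6 (left) and P15 (right). Circles compare Capillary with all other labelled cells, squares the P6 cells of like depth and mitochondrial share, and triangles the other labelled cells with at least 2% against under 2% mitochondrial UMIs. The circles go from -0.25 to 0.30 at P6 and from -0.30 to 0.15 at P15.

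Markers of other cell types were scarce in P6 Capillary cells. The study collected CD45- cells and filtered out cells by *Hbb-bt*, *Neurod1* and *Cd63*, its markers of blood, neural cells and pericytes. Low levels in labelled cells were thus partly set in advance. The 11 pericyte genes summed to 11.5 CPM against 10.5 CPM in the other cells, with *Pdgfrb*, *Kcnj8*, *Notch3* and *Cspg4* at 0 UMIs in Capillary cells. Neural genes summed to 38.3 CPM against 68.3 CPM in the other cells. The leukocyte and blood list summed to 30.6 CPM against 24.2 CPM, with 0 UMIs of *Cx3cr1*, *C1qa*, *C1qb* and *Csf1r* in Capillary cells. The glia list had 201 CPM against 353 CPM, nearly all of it *Glul*, which encodes glutamine synthetase and was found in 906 of the 1411 other cells. At P15 the pericyte list reached 454 CPM against 217 CPM. It was mostly *Rgs5*, with 41 UMIs in 9 cells and 17 of them in 1, and *Pdgfrb*, *Kcnj8*, *Abcc9*, *Notch3* and *Cspg4* were at 0 UMIs. The other P15 lists summed to 75.7 against 120 CPM (neural), 482 against 1197 CPM (glia) and 236 against 182 CPM (leukocyte and blood). Leaving out every cell with a UMI of the pericyte list kept 144 Capillary cells at P6 and 31 at P15, with basement membrane medians of 1.26 and 1.30.

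*Xist*, the RNA that silences an X chromosome in female cells, was more frequent in Capillary cells than in the other cells pooled. UMIs of *Xist* were found in 46 of 149 P6 Capillary cells (30.9%, 23.6 to 39.0) and 233 of 1411 other cells (16.5%, 14.6 to 18.6), although the Capillary cells were shallower. The share varied among the other clusters, up to 15 of 42 Venous cells (35.7%, 21.6 to 52.0), none of which had a Y-linked UMI, and 24.7% of Proliferative cells. UMIs of 4 Y-linked genes were found in 31 (20.8%, 14.6 to 28.2) and in 25.9% of the others, and 1 Capillary cell had both. With each cell thinned to 1500 UMIs, 16.2% (10.7 to 23.2) had *Xist* and 14.9% (9.56 to 21.6) a Y-linked UMI, against 5.53% and 9.99% of the others. The 29 unlabelled P6 barcodes with at most 1 endothelial UMI held *Xist* in 13.8% (3.89 to 31.7). The libraries therefore held cells of both sexes. At P15, 7 of 42 Capillary cells (16.7%, 6.97 to 31.4) had *Xist* and 14 a Y-linked UMI, against 4.04% and 51.3% of the others, but thinned to 1500 UMIs the Y-linked shares were 10 of 31 (32.3%, 16.7 to 51.4) and 27.5%, so the direction turned. The thinned *Xist* shares were 2 of 31 (6.45%, 0.791 to 21.4) and 1.02%.

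Among the P6 Capillary cells with an *Xist* and no Y-linked UMI, 45 in number, *Col15a1* was at 345 CPM (264 to 443), from 61 UMIs. Among the 30 with a Y-linked and no *Xist* UMI it was at 82.0 CPM (35.4 to 162), from only 8 UMIs. In the other labelled cells the same groups stood at 61.2 CPM (49.3 to 75.1) and 75 CPM (64.6 to 86.5). Kept to cells with a Y-linked and no *Xist* UMI, the ratio of Capillary to other cells was 1.09 for *Col15a1*, and the basement membrane median was 0.80. *Mfsd2a* did not follow *Col15a1*, with 690 CPM (573 to 824) and 810 CPM (641 to 1010), nor did *Kdr*, with 656 CPM (542 to 787) and 697 CPM (541 to 884). The 73 P6 Capillary cells with neither kind of UMI held *Col15a1* at 247 CPM (188 to 317). Its UMIs were uneven among P6 Capillary cells, with 18 of 130 in 1 cell, which counting intervals do not cover. Pups of a litter differ in more than sex, and sex and pup cannot be told apart here.

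The P6 and P15 descriptions of the label come from different libraries and can be set side by side. The study integrated both ages before clustering, so agreement between them is partly built into the label. Over 1835 genes counted at both ages, the log2 ratios had a Pearson r of 0.58 and a Spearman rho of 0.55 across genes, which share clusters, length and depth effects. Of all 1835 genes, 192 were higher and 117 lower at P6, and 149 were higher and 287 lower at P15. Of the genes higher at P6, 91 of 192 (47.4%) were also higher at P15, or 61.1% of the 149 of P15. Of the lower genes, 45 were shared, 38.5% of the 117 at P6 and 15.7% of the 287 at P15. Only 1 gene was higher at P6 and lower at P15, and 2 the other way.

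Between the ages, 285 of 1826 genes were at least 1.5-fold higher in P15 than in P6 Capillary cells (15.6%) and 386 lower (21.1%), beside 264 (14.5%) and 262 (14.3%) in the other labelled cells. Age and library cannot be told apart. *Slco1a4* went from 26.8 CPM at P6 to 1646 CPM at P15 (ratio 61.5, 35.7 to 115), and the other cells by a ratio of 28.0. *Slc16a1* went from 109 to 1769 CPM (16.2, 12 to 22.2), and the others by 13.0. *Bsg*, which encodes the chaperone of monocarboxylate carriers, went from 4510 to 20655 CPM (4.58, 4.32 to 4.86), and the others by 5.71. These carriers thus differed between the libraries in Capillary and other cells alike.

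The largest ratio after *Slco1a4* was that of *Rn7sk*, at 49.0, but 309 of its 317 UMIs at P15 were in 1 cell, which was also the cell that held most of *Gm23935*. *Pkd2*, at 12.8, had 53 of 57 UMIs in another cell. Lower at P15 were *Top2a* (0.0351, 0.000882 to 0.199), *Col18a1* (0.0883, 0.0322 to 0.194), *Igfbp3* (0.112, 0.0508 to 0.214) and *Plvap* (0.122, 0.0329 to 0.319), against 0.145, 0.149, 0.291 and 0.0531 in the other cells. *Mfsd2a* had 0.721 (0.545 to 0.941) in Capillary and 1.06 in the other cells, and *Kdr* 1.30 (1.02 to 1.64) and 1.03. Of the barrier carriers, 8 of 18 were at least 1.5-fold higher at P15 and 1 lower, with a median of 0.55 in Capillary and 0.94 in the other cells.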

How the data were processed

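The authors deposited, per age, a table of raw UMI counts per gene and cell barcode, without normalization. The submitters' processing notes name Seurat 3.0 and mm10. The aligner was not given in the sources used here. Identifiers were mapped to symbols (22695 of 22734 at P6, 21745 of 21785 at P15), and UMIs without a symbol (0.0145% and 0.0146%) were kept out. Cluster labels came from the study's source data for its cell map, of which the copy used here holds the first 438 P15 cells. UMIs were summed over cells, and ratios were given conditional binomial, levels exact Poisson and shares Clopper-Pearson intervals at 95%. Genes entered counts at 50 CPM at P6 and 100 CPM at P15. A count of 0 was bounded by 3 counts. Doublets were not called. Exon lengths and positions were from GENCODE M21 (GRCm38), matched by symbol. The genes named are those of 32 fixed lists and, per library, the genes at each end of the ratio, 15 per end, among genes past the CPM minimum with a UMI in at least 20% of Capillary cells (largest) or of the others (smallest); genes with the most extreme ratios between ages were named after their values were seen, as were the gene families, the exon length comparison, the split at 2% mitochondrial UMIs, the unlabelled background barcodes and the single-cell concentration of UMIs. Members and lists were chosen with earlier results of these data known. The ratio step was tested on simulated counts. Python 3.11.15, numpy 2.4.6, scipy 1.17.1, pandas 2.3.3 and matplotlib 3.10.9 were used. Alternatives covered depth, mitochondrial share, sex, comparison cells, scaling and the minimum level. Some listed genes are not reported here.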

Additional observations from a re-analysis of the deposited data

Results flagged for a closer look

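*Igfbp3* and *Itm2a* were set apart because Capillary cells lay above the other cells at P6 and below them at P15, with 95% counting intervals that left out 1 at both ages. *Igfbp3*, an insulin-like growth factor binding protein gene, had ratios of 1.16 at P6 and 0.444 at P15, the latter from 9 UMIs, and without the cell with 30 of its 398 P6 UMIs the P6 ratio was 1.08. *Itm2a*, a membrane protein gene, had ratios of 1.22 at P6 and 0.807 at P15. With 1 library per age the difference between the ages was not tested.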

How the results depend on the processing

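The cause of each move was not tested. No paired analysis was possible because each age had 1 library and no result comes from a test. Of 844 gene ratios under alternatives 832 kept their direction, and of 663 list medians 598 did. The gene ratios were those of the markers and of the genes at each end of the ratio in the same cells. Most were therefore likely to keep their direction, and the count says little about other genes. Genes higher and lower were 797 and 469 at P6 and 452 and 654 at P15 with the CPM minimum halved, and 154, 108, 53 and 112 with it doubled. Thinning to 1500 UMIs gave 383 lower P6 genes, a P6 basement membrane median of 1.05, and *Xist* in 16.2% (P6) and 6.45% (P15). Thinning to 3000 UMIs gave P6 ratios of 1.59 (*Mfsd2a*) and 2.69 (*Col15a1*), 447 lower P15 genes, and at P15 0.715 for *Gm23935* and 0.608 for *Adgre5*. Cells within the depth quartiles gave 0.95 for the list, 1.62 (*Mfsd2a*), 1.54 (*Kdr*) and 1.08 (*Nutf2-ps1*) at P6, and 261 higher and 478 lower P15 genes. Adding at least 2% mitochondrial UMIs, chosen after seeing the data, gave at P6 373 lower genes, 0.43 for the list, 1.40 (*Mfsd2a*), 1.18 (*Kdr*), 2.25 (*Col15a1*), 0.911 (*Gm23935*) and 1.43 (*Nutf2-ps1*), and at P15 510 and 639 genes, 0.794 (*Mfsd2a*) and 1.14 (*Gm10263*). Cells with at most 2% gave 460 lower P6 genes and 0.88 for the list. Cells with a Y-linked and no *Xist* UMI gave at P6 621 lower genes, 0.80 for the list, 1.09 (*Col15a1*), 1.43 (*Gm6444*), 1.03 (*Nutf2-ps1*) and 1.17 (*Blvrb*), and at P15 0.890 (*Mfsd2a*), 1.92 (*Kdr*) and 0.813 (*Gm23935*). Dividing by the median ratio gave 162 lower P6 genes and 242 higher and 176 lower P15 genes. *Mfsd2a* at P6 was 1.62 without Proliferative and Primitive cells and 2.05 with clusters weighted equally. The mean of CPM per cell gave 449 lower P15 genes and 3.11 for *Kdr*. Totals over 42 P15 cells limit single genes.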
